A study of Rattus norvegicus with 61 samples.

Results

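Blood myeloid cells were compared with splenic lymphocytes in sorted rat immune cells. The comparison used the 12 columns of the deposited table labelled neutrophils (Neu) and monocytes (Mon) against the 24 columns labelled B cells, NK cells, CD4 T cells and CD8 T cells, which are 36 of the 61 samples of the series. The series was made to build and check a rat deconvolution, a method that estimates immune cell amounts from bulk RNA, and these 6 cell types are its reference profiles. The 36 sorted samples came from untreated wild-type male Sprague-Dawley rats, 6 weeks old, with 6 samples for each cell type. The rest of the series is whole blood cells and whole spleen, also from untreated rats, and livers. The liver rats were given acetaminophen, methylene dianiline or a methylcellulose vehicle by gavage. Lymphocytes were sorted from the spleen as CD45+ CD11b- cells, with CD3+ CD4+ for CD4 T cells, CD3+ CD8a+ for CD8 T cells, CD3- CD161+ for NK cells and CD3- CD45RA+ for B cells. Neutrophils and monocytes were sorted from the blood as CD45+ CD11b+ CD3- CD45RA- CD161- cells, with CD43int and high side scatter for neutrophils and low side scatter for monocytes. Every myeloid sample is therefore from blood and every lymphoid sample from spleen, so lineage, tissue and the CD11b gate cannot be told apart in this contrast.

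Neutrophils and monocytes are phagocytes of the innate immune system. Neutrophils are short-lived cells filled with antimicrobial granules, and monocytes can leave the blood to become macrophages. B and T cells carry rearranged antigen receptors, with CD4 T cells acting mainly as helpers and CD8 T cells mainly as killers of infected cells. NK cells are lymphocytes that kill without such a receptor. Both lineages arise from blood stem cells in the bone marrow.

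The table lists 31196 Ensembl transcripts, of which 23583 had a value above 0 in at least 1 of the 36 samples and 14172 had a mean of at least 1 CPM, the estimated count per 1000000 of the sample's total. Those 14172 transcripts, which held 99.8% of the summed values, were tested. None of the identifiers matched the 47357 rat genes of the gene list used here (0 matches), so transcripts are given without gene names and the labelled cell types were not checked against marker genes. The counts below are of transcripts, and several may belong to 1 gene. The lymphoid samples had more transcripts above 0 (17450 to 18200) than the myeloid samples (15314 to 17190), and the ranges did not overlap. The lowest number belonged to neutrophil replicate 5, which also had the smallest total of the 36 samples, 3429971 against 9510256 to 13576585 in the other 35.

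Some single libraries bear on the counts. NK replicate 5, CD4 T replicate 5 and CD8 T replicate 5 were closer to the B cell samples than to their own cell type. Their median Pearson r of log2(CPM + 1) across transcripts was 0.966, 0.970 and 0.971 with B cells, against 0.956, 0.95 and 0.949 with their own type. In all, 7 libraries were closest to another type of their lineage, the other 4 being CD4 T or CD8 T libraries closest to the other T cell type. All 7 lay on the lymphoid side, as 0 of the 36 libraries were closer to any cell type of the other lineage. The best median r within the own lineage was at least 0.949 in every library, and the highest to a type of the other lineage was 0.862. The first principal component held 55.8% of the variance and separated all 12 myeloid from all 24 lymphoid samples, as the plot of the first 2 components shows.

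**Figure D1:**
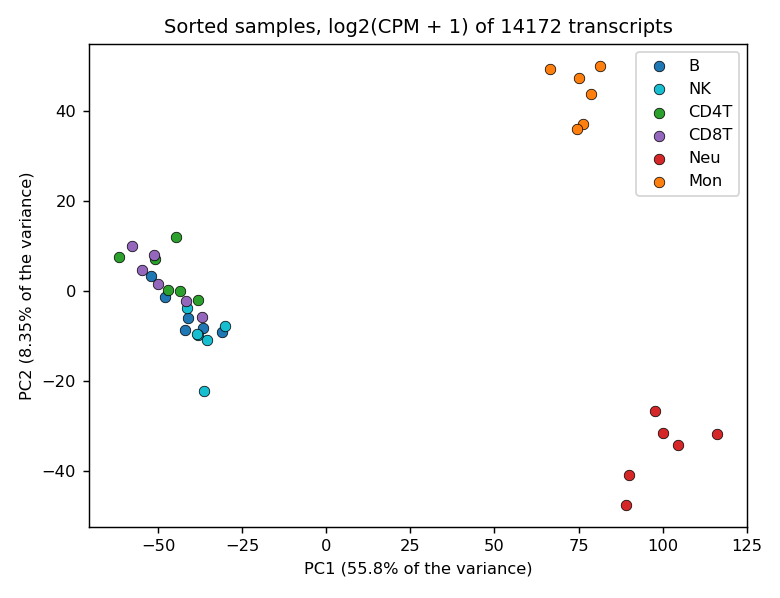
First and second principal component of log2(CPM + 1), in arbitrary units, for the 36 sorted samples, with 1 point per sample coloured by cell type. The 12 myeloid samples lie between 66.5 and 116 on the first component and the 24 lymphoid samples between -61.7 and -30.3, while the second separates neutrophils from monocytes.

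With each cell type given equal weight, 4951 transcripts were higher in the blood myeloid cells and 6262 were lower (edgeR's quasi-likelihood test, Benjamini-Hochberg adjusted p under 0.05). These were 34.9% and 44.2% of the 14172 tested, and 79.1% together. Which side held more of the large differences depended on the size asked for. Beyond a log2 difference of 1 there were 2190 transcripts higher in the myeloid cells and 2296 lower. Beyond 2 there were 1024 higher and 674 lower, and beyond 3 there were 528 and 227. Beyond 5 there were 45 higher and 57 lower. The median log2 difference was 0.86 among the transcripts called higher and -0.78 among those called lower.

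The direction of small differences depended on the scaling. With TMM, which sets library sizes from the bulk of the transcripts, the median log2 difference of all tested transcripts was -0.12. With library totals alone it was -0.31, and 3940 transcripts were called higher and 7344 lower. The share of calls that were higher was then 34.9%, against 44.2% with TMM. The TMM factors lay between 0.694 and 0.911 in neutrophils, and between 0.93 and 1.28 in the lymphoid samples and 1.01 and 1.08 in monocytes. The p-values measure the spread between samples of these 6 types. Nothing in the labels says whether the 6 samples of a type came from separate animals.

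A stricter reading asks that both myeloid types lie beyond all 4 lymphoid types, with each of the 8 pairwise tests past the threshold in the same direction. This held for 2500 transcripts above (17.6% of those tested) and 2863 below (20.2%). All 2500 and all 2863 were also called in the contrast with equal weights. By the order of the 6 mean levels alone, without a test, 3903 transcripts (27.5%) had both myeloid means above all 4 lymphoid means and 5326 (37.6%) had both below. Without NK, CD4 T and CD8 T replicate 5, an alternative chosen after seeing the data, the 8 tests gave 2452 above and 2708 below. Without neutrophil replicate 5 they gave 2507 above and 2757 below.

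Sample by sample, all 12 myeloid samples lay above all 24 lymphoid samples in 1713 transcripts (12.1% of those tested) and below them in 1259 (8.88%). Of the transcripts that passed the 8 tests, 1704 of 2500 above (68.2%) and 1255 of 2863 below (43.8%) were separated in this way. The gap between the lowest sample of the higher lineage and the highest sample of the lower lineage was, with TMM, wider for the transcripts above. On the log2(CPM + 1) scale its median was 0.48 in the 1704 transcripts above and 0.24 in the 1255 below. A gap over 1, which is more than 2-fold at levels well above 1 CPM, was found in 390 transcripts above and 57 below. With library totals in place of TMM, 1116 transcripts were separated above and 1704 below, so the order of these 2 counts turned.

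The transcripts above had a median log2 difference of 1.42, with 10% under 0.58 and 10% over 3.74. The transcripts below had a median of -1.08, with 10% beyond -2.61. Over all 14172 tested the median was -0.12. Levels differed between the 2 sets as well. The mean level in the myeloid cells had a median of 50.2 CPM in the transcripts above, while the mean level in the lymphocytes had a median of 14.6 CPM in the transcripts below. In the lower lineage the medians were 16.5 CPM for the transcripts above and 6.61 CPM for those below, so most transcripts of both sets were measured in both lineages. Of the 2500 transcripts above, 722 had a myeloid mean over 100 CPM and 59 over 1000 CPM. Of the 2863 below, 283 had a lymphoid mean over 100 CPM and 62 over 1000 CPM.

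Few transcripts were at 0 throughout a lineage. Of the transcripts above, 0 were listed at 0 in all 24 lymphoid samples, and 2 were at or under 3 estimated counts in all of them. Of the transcripts below, 10 were listed at 0 in all 12 myeloid samples, and 41 were at or under 3. The transcripts at or under 3 are few, so setting them to the bound that 3 counts allow could hardly move the medians. These stayed at 1.42 and -1.08.

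The 2 myeloid types did not always move together. Neutrophils passed all 4 of their tests as above in 3746 transcripts and monocytes in 3205, and 2500 were shared. Neutrophils were below all 4 lymphoid types in 4199 transcripts and monocytes in 3739, with 2863 shared. Neutrophils were above all 4 while monocytes were neither above nor below all 4 in 1183 transcripts, and the reverse was found in 678. On the lower side these counts were 1309 for neutrophils and 813 for monocytes. In 63 transcripts neutrophils were above and monocytes below all 4 lymphoid types, and in 27 monocytes were above and neutrophils below. The contrast with equal weights called 26 of these 90 transcripts (19 of the 63 and 7 of the 27), so the equal-weight contrast left most of these transcripts without a call. Of the 4951 transcripts called higher in the contrast, 50.5% passed all 8 pairwise tests, and of the 6262 called lower 45.7% did.

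Within the shared sets, neutrophils and monocytes were compared directly. Of the 2500 transcripts above, neutrophils were higher than monocytes in 1124 (45%) and lower in 454 (18.2%), and 922 were not called. Over all 14172 tested, neutrophils were higher in 23.3% and lower in 20.1%. Of the 2863 transcripts below, neutrophils were higher in 234 (8.17%) and lower in 460 (16.1%), and 2169 were not called. Called differences of more than 4-fold between the 2 myeloid types were found in 161 transcripts above with neutrophils higher (6.44%) and in 30 with monocytes higher (1.2%). Over all tested these shares were 2.97% and 0.833%. Among the transcripts below the counts were 15 (0.524%) and 3 (0.105%). Monocytes had the lower mean of the 2 in 64.4% of the transcripts above.

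The lymphoid type whose mean lay nearest to the myeloid cells differed between transcripts. For the transcripts above, the lymphoid type with the highest mean was the NK cell in 1069 (42.8%), the B cell in 821 (32.8%), the CD4 T cell in 433 (17.3%) and the CD8 T cell in 177 (7.08%). For the transcripts below, the lymphoid type with the lowest mean was NK cells in 871 (30.4%), B cells in 803 (28.0%), CD4 T cells in 748 (26.1%) and CD8 T cells in 441 (15.4%). These are orders of means and not distances, and neighbours in the order were not tested one by one. The same shares over all tested transcripts are not given, so they cannot be read as particular to these sets. CD4 and CD8 T cells differed in only 165 transcripts, so places next to T cells are split between these 2 types. At least 1 of the 6 pairs of lymphoid types differed in 874 transcripts above (35.0%) and 1035 below (36.2%), against 32.4% of all tested.

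Distances across the lineages were larger than those within them. Each of the 8 pairs of a myeloid and a lymphoid type differed in 61.9% to 72.3% of the transcripts tested. The fewest calls were between monocytes and B cells (8773) and the most between neutrophils and CD8 T cells (10248). Neutrophils were higher than B, NK, CD4 T and CD8 T cells in 31.9%, 31.2%, 32.1% and 32.9% of the transcripts and lower in 36.7%, 37.6%, 39.6% and 39.4%, in that order. For monocytes the shares were 28.4%, 28.1%, 28.2% and 29.5% higher and 33.5%, 34.4%, 36.5% and 36.7% lower. Within the lymphoid lineage the 6 pairs differed in 1.16% to 17.2%, with 165 calls between CD4 and CD8 T cells and 2431 between NK and CD4 T cells. Neutrophils and monocytes differed in 6149 transcripts (43.4%). The median absolute log2 difference was 0.57 to 0.77 across lineages, 0.12 to 0.21 between lymphoid types and 0.39 between neutrophils and monocytes. The median SD between samples of 1 type, on the log2(CPM + 1) scale, was lowest in monocytes (0.16) and highest in NK cells (0.26).

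**Figure D2:**
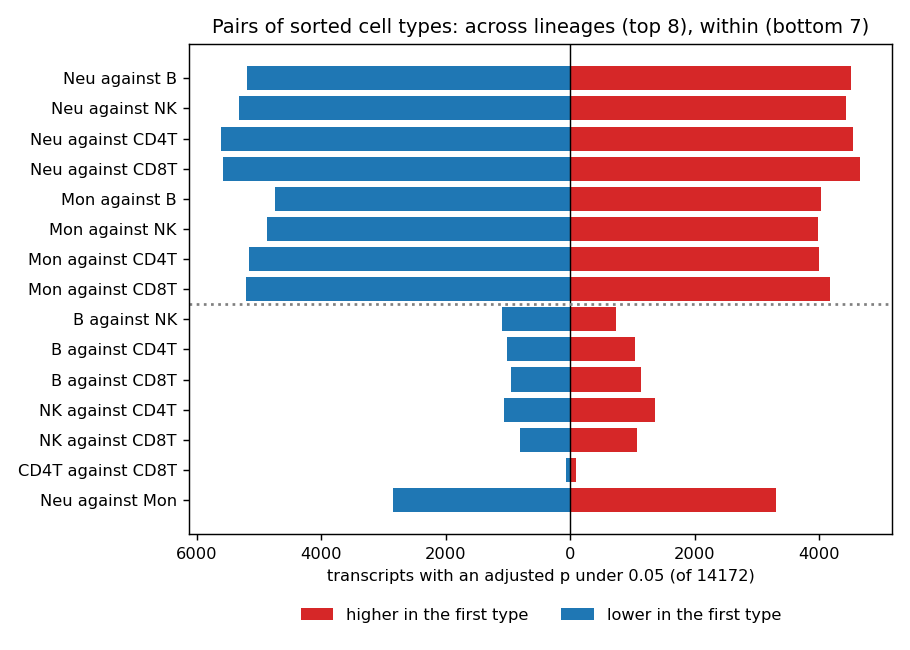
Number of transcripts with an adjusted p under 0.05 for each of the 15 pairs of sorted cell types, of 14172 tested, with those higher in the first type to the right and those lower to the left. The 8 pairs across lineages have 8773 to 10248 calls each and the 7 pairs within a lineage 165 to 6149.

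The transcripts above took up a large share of the myeloid RNA. They held 45.1% ± 3.93 of the sample's total in neutrophils and 33.8% ± 1.37 in monocytes (SD, n = 6 each). In the lymphoid types they held 12.4% ± 1.06 in CD8 T cells, 12.8% ± 0.882 in CD4 T cells, 13.0% ± 0.661 in B cells and 14.6% ± 0.419 in NK cells (SD, n = 6 each). The lowest myeloid sample had 31.4% and the highest lymphoid sample 15.2%. The transcripts below held 13.6% ± 1.73 in neutrophils and 18.0% ± 0.573 in monocytes, against 29.1% ± 1.40 in NK cells to 31.5% ± 0.640 in CD8 T cells (SD, n = 6 each). Since the same samples chose the transcripts, these shares are a description and were not tested. A few transcripts carried most of the sums, as 95 of the 2500 held 50% or more of the myeloid sum and 38 of the 2863 held 50% or more of the lymphoid sum.

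**Figure D3:**
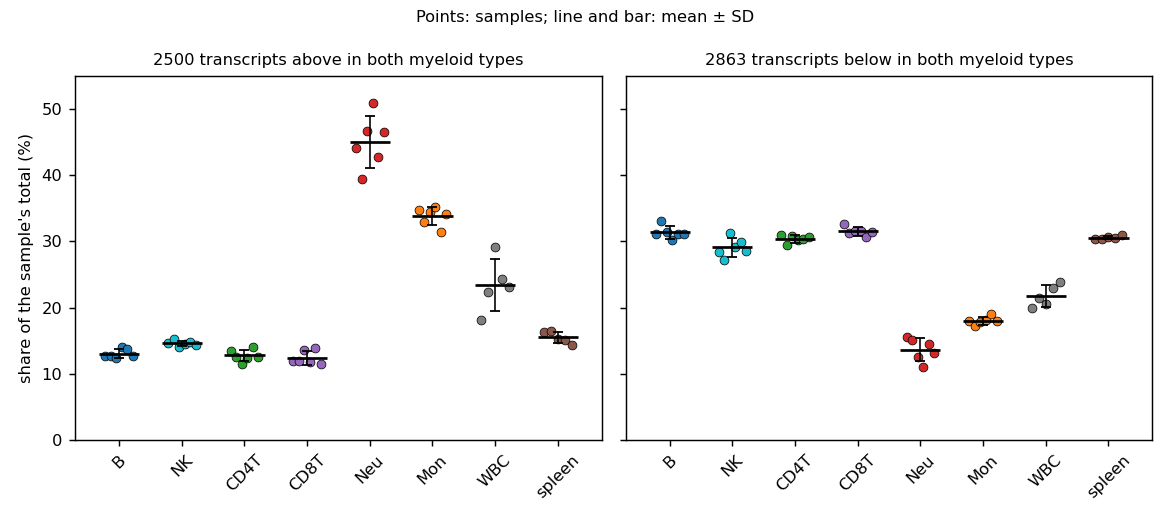
Share of each sample's total, in percent, held by the 2500 transcripts above (left) and the 2863 transcripts below (right), with 1 point per sample and the mean ± SD per group. Neutrophil and monocyte samples lie between 31.4% and 51.0% on the left and all lymphoid samples between 11.4% and 15.2%, with whole blood cells (WBC) at 18.2% to 29.1%.

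The choice was also repeated with samples left out, as a description of how steady the order was between libraries. Each replicate number was left out of all 6 types in turn, the 8 tests were run on the other samples, and the order was read in the 6 libraries left out. Each round chose sets of its own, with 2326 to 2616 transcripts above. The sets of 2500 and 2863 themselves were therefore not looked up in other sorted samples. Between 87.1% and 97.6% of the transcripts chosen as above had both left-out myeloid libraries above all 4 left-out lymphoid libraries, against 23.5% to 26.9% of all transcripts tested. For the transcripts chosen as below this was 73% to 95%, against 26.4% to 33.4%. The shares over all tested include the chosen transcripts. Replicate 2 gave the lowest shares in both directions. In that replicate 6 transcripts chosen as above and 7 chosen as below had the opposite order, while in the other 5 replicates 0 did.

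The named transcripts are given by identifier, in each direction the 1 with the largest log2 difference and the 1 with the highest mean level among those that passed the 8 tests with all samples apart. ENSRNOT00000015473 had the highest mean of all tested transcripts in the myeloid cells. It lay between 35121 and 83567 CPM in neutrophils, with a median of 48878. In monocytes it lay between 1957 and 6745 CPM, with a median of 3095. The medians of the lymphoid types were 1079 CPM in B cells, 991 in NK cells, 615 in CD8 T cells and 594 in CD4 T cells, and the highest lymphoid sample had 1342 CPM. All 12 myeloid samples thus lay above all 24 lymphoid samples, but on the CPM scale monocytes were far closer to the lymphocytes than to the neutrophils. The log2 difference between the lineages was 4.21 ± 0.22 (SE, edgeR, adjusted p = 6.0e-18). Neutrophils exceeded monocytes by 3.85 ± 0.41 on the log2 scale (SE, edgeR, adjusted p = 2.0e-09). In the fit without neutrophils, monocytes exceeded the lymphocytes by 2.31 on that scale, so these distances were less unequal there. Between same-numbered samples the ratio of neutrophils to monocytes ran from 12.4 to 18.0, and replicates 1 and 2 were the highest in both types. Whether neutrophil RNA in the monocyte samples had a part in their level was not tested.

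ENSRNOT00000089857 had the largest log2 difference on the myeloid side among the separated transcripts, 7.56 ± 0.66 (SE, edgeR, adjusted p = 2.4e-10). It was a transcript of low level, at 4.40 to 22.6 CPM in neutrophils (median 9.94) and 3.48 to 11.7 CPM in monocytes (median 7.39). It was listed at 0 in 22 of the 24 lymphoid samples, and the other two had 1.51 CPM (B cells) and 1.14 CPM (CD4 T cells). Neutrophils and monocytes did not differ beyond their spread (log2 difference 0.61 ± 0.76, SE, edgeR, adjusted p = 0.547). Its fitted difference depends on how values of 0 are handled and was 3.04 in limma on log2(CPM + 1), where ENSRNOT00000015473 had 4.08.

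ENSRNOT00000057022 had the largest log2 difference on the lymphoid side among the separated transcripts. It was listed at 0 in 8 of the 12 myeloid samples and reached at most 0.386 CPM there. The lymphoid samples lay between 17.2 and 161 CPM, with medians of 55.7 in B cells, 48.8 in NK cells, 39.2 in CD8 T cells and 35.2 in CD4 T cells. The highest NK, CD4 T and CD8 T sample was replicate 5 in each, at 161, 102 and 128 CPM. The fitted log2 difference was -9.67 ± 0.60 (SE, edgeR, adjusted p = 4.9e-16), and it was -5.63 in limma on log2(CPM + 1), since the myeloid level rests on values near 0. No fold is given for that reason.

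ENSRNOT00000074175 had the highest lymphoid mean among the separated transcripts below. It lay between 3929 and 4767 CPM in B cells, with a median of 4494. The medians were 2792 CPM in NK cells, 2269 in CD4 T and 2175 in CD8 T samples, and the lowest lymphoid sample had 1295 CPM. In neutrophils it lay between 373 and 961 CPM (median 641) and in monocytes between 752 and 932 CPM (median 782). The log2 difference was -1.97 ± 0.16 (SE, edgeR, adjusted p = 8.8e-13), with the lymphoid mean 4.04 times the myeloid mean. Neutrophils and monocytes did not differ beyond their spread (log2 difference -0.23 ± 0.24, SE, edgeR, adjusted p = 0.466).

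**Figure D4:**
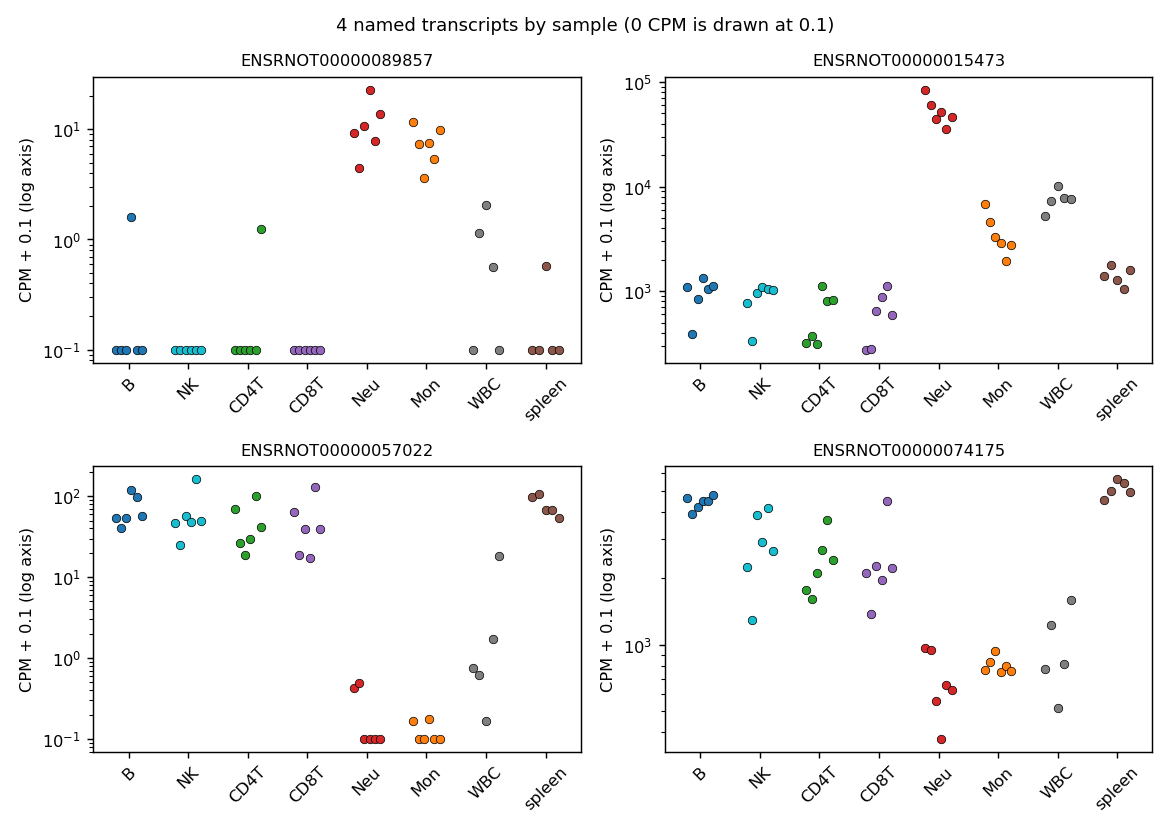
Level of the 4 named transcripts in each sorted, WBC and spleen sample, as CPM + 0.1 on a log axis, with 1 point per sample and values of 0 drawn at 0.1 (TMM library sizes for sorted samples, library totals for WBC and spleen). The 12 myeloid samples lie apart from the 24 lymphoid samples in each panel, and WBC samples lie at 0.0663 to 18.4 CPM for ENSRNOT00000057022, where spleen samples lie at 53.0 to 108 CPM.

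WBC and whole spleen, with 5 samples each, hold cells of both lineages within 1 tissue and were not used in choosing the sets. Their comparison is again blood against spleen, so it cannot tell lineage from tissue in either set. In bulk samples, fewer cells of a type and less RNA per cell cannot be told apart. Of the 2472 transcripts above that were tested there, 1918 (77.6%) were higher in WBC than in spleen and 10 were lower (edgeR's quasi-likelihood test), against 23.9% higher over all 13885 transcripts tested. Their median log2 difference was 0.58, against -0.02 over all tested. Of the 2818 transcripts below, 1827 (64.8%) were lower in WBC and 20 were higher, against 22.7% lower over all tested, and their median was -0.44. With library totals in place of TMM these shares were 56.8% above, against 14.7% of all tested, and 81.6% below, against 35.2%. The share rose with the size of the difference between the lineages on the myeloid side. It was 58.5% for a log2 difference up to 1, 81.2% from 1 to 2, 89.8% from 2 to 3 and 95.5% beyond 3. On the lymphoid side it was 57.1%, 64.9%, 85.4% and 80.9% in the same order.

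The level of WBC was then placed between the 2 lineages transcript by transcript, as a description chosen after seeing the data. The lymphoid mean was set to 0 and the myeloid mean to 1 on the linear CPM scale, for transcripts with a log2 difference beyond 1. The position of WBC had a median of 0.374 in the 1664 transcripts above, with 80% of them between 0.211 and 0.593. It had a median of 0.743 in the 1581 transcripts below, with 80% between 0.541 and 0.926. By these medians WBC lay nearer the lymphocytes in the first set and nearer the blood myeloid cells in the second. WBC replicates 1 and 2 stood apart, with 24.7% and 17.5% of their totals in 10 transcripts, against 12.1% to 12.5% in the other 3. The median position in the first set was 0.218 in replicate 1 and 0.341 in replicate 2, against 0.334 to 0.587 in the other 3. In the second set it was 0.784 and 0.712, against 0.678 to 0.826. Whether the share held by a few transcripts had a part in the position was not tested. Without these 2 samples, an alternative added after seeing the data, the medians were 0.441 and 0.747. The median was higher in the second set in each of the 5 WBC samples, which had 0.218 to 0.587 in the first set and 0.678 to 0.826 in the second. Among transcripts below, the median was 0.702 for a log2 difference of 1 to 2, 0.821 for 2 to 3 and 0.895 beyond 3. Among transcripts above it was 0.350, 0.387 and 0.398 in the same order.

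A WBC position over 0.9 was found in 237 of the 1581 transcripts below (15.0%) and in 35 of the 1664 above (2.10%). For a log2 difference of 1 to 2 these shares were 7.83% and 2.45%. Of the 182 transcripts below by more than 3 on the log2 scale, 83 (45.6%) had a WBC position over 0.9, against 7 of the 483 transcripts above by more than 3 (1.45%). Without WBC replicates 1 and 2 the counts over 0.9 were 257 below and 65 above, and beyond 3 they were 71 and 14. The spleen had a median position of 0.0923 in the transcripts above, with 80% between -0.0284 and 0.252. In the transcripts below its median was 0.0806, but 80% spread from -0.461 to 0.481, so many lay away from the lymphoid mean on either side. In the 182 transcripts below by more than 3 its median was -0.18, which is beyond the lymphoid mean and away from the myeloid cells. With TMM library sizes over the 46 samples the WBC medians were 0.396 above and 0.683 below. How much of either set follows the tissue rather than the lineage cannot be told apart, since blood lymphocytes and splenic myeloid cells were not among the sorted types.

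**Figure D5:**
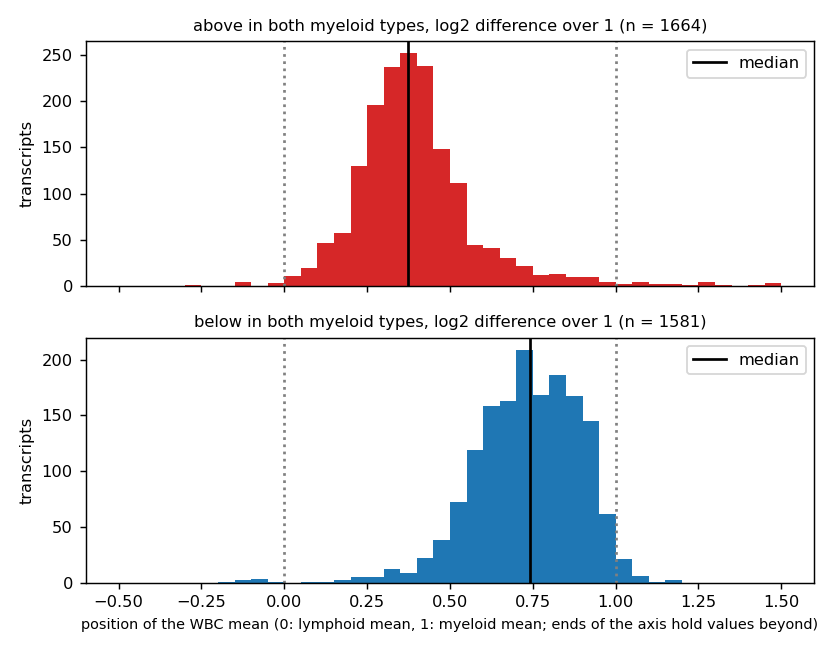
Position of the WBC mean between the lymphoid mean (0) and the myeloid mean (1) for transcripts with a log2 difference beyond 1, above (top, n = 1664) and below (bottom, n = 1581) in both myeloid types, with the number of transcripts per bin of 0.05 on the vertical axis and the median as a line (values beyond the axis are counted in its end bins). The medians are 0.374 and 0.743.

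The named transcripts showed both patterns. ENSRNOT00000015473 had 5284, 7252, 10173, 7784 and 7595 CPM in the 5 WBC samples and 1382, 1797, 1280, 1042 and 1589 CPM in the 5 spleens. WBC exceeded spleen by 2.58 on the log2 scale (edgeR, adjusted p = 4.7e-06), and the WBC position was 0.310. ENSRNOT00000089857 had 0, 1.05, 1.95, 0.466 and 0 CPM in WBC and was listed at 0 in 4 of 5 spleens, under the minimum for a test there. ENSRNOT00000057022 had 0.648, 0.524, 0.0663, 1.64 and 18.4 CPM in WBC, against 98.3, 108, 66.6, 68.1 and 53.0 CPM in spleen (edgeR, log2 difference -4.04, adjusted p = 0.0027). Its WBC position was 0.930, and 4 of 5 WBC samples lay below the lowest splenic lymphocyte sample. ENSRNOT00000074175 had 775, 1222, 518, 814 and 1598 CPM in WBC and 4511 to 5615 CPM in spleen. WBC were lower by 2.20 on the log2 scale (edgeR, adjusted p = 0.00011), and the WBC position was 0.880.

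A smaller group of transcripts was even between the lineages in the equal-weight contrast with TMM. The 95% interval of the log2 difference lay within 0.5 on either side of 0 in 3567 transcripts (25.2%). Of these, 1872 were called all the same, with differences that were small in size but large beside their narrow error, and 1695 were not. The other 1264 transcripts that were not called had wider intervals, so a difference beyond 0.5 cannot be set aside for them. Of the 1695 even transcripts, 100 had a mean over 100 CPM in each of the 6 cell types. Opposite shifts of the 2 myeloid types can cancel in this contrast. It left uncalled 44 of the 63 transcripts with neutrophils above and monocytes below all 4 lymphoid types. Of the 27 with the reverse it left 20 uncalled. The scaling matters as well. The median log2 difference of all tested transcripts was -0.12 with TMM and -0.31 with library totals.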

How the data were processed

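RNA of sorted cells, whole blood cells and spleen was sequenced as paired ends from a strand-specific library kit. The authors quantified transcripts with Salmon 1.6.0 and imported them with tximport in R 4.1.3. Their methods call the result TPM, but the deposited columns do not share 1 total, and the values were read here as estimated counts scaled to each library. Column totals were whole to within 0.04, while 0% of the values above 0 were whole, and the smallest value differed between transcripts (5th to 95th percentile 0.162 to 2.12 over 2728 transcripts). This is the form of TPM scaled up to the library total, which no source used here states. If so, levels compare between transcripts, and a value of 3 is not 3 reads. CPM was computed here.

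Estimated counts were rounded, scaled by TMM and tested with edgeR 4.0.16 (quasi-likelihood, R 4.3.3) in 1 fit of 36 samples with 6 cell types, after dropping transcripts whose mean was under 1 CPM. P-values were adjusted by Benjamini-Hochberg over all transcripts tested. WBC and spleen had a fit of their own. Alternatives used DESeq2 1.42.0, limma 3.58.1, other filters and scalings, and samples left out, and the scripts were tested on simulated data. Named transcripts were, in each direction, the largest log2 difference and the highest mean among those past all 8 tests with no overlap of samples. The members and lists were chosen with earlier results of these data known. The livers enter only with the level of 1 named transcript. The depth of each sample limits precision only as far as its total shows, since reads per transcript are not given.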

Additional observations from a re-analysis of the deposited data

Results flagged for a closer look

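Of 70 groups of sample values examined, 10 had a highest or lowest sample far from the others. Chance would give about 1 in 20 for independent, normally distributed values. Several of the flagged groups share a library or hold mostly values of 0, so an excess over chance cannot be judged. NK replicate 5 had 18200 transcripts above 0, the most of the NK samples. Neutrophil replicate 5 had the smallest total, 3429971, and the fewest transcripts above 0, 15314. Monocyte replicate 2 had 11.5% of its total in its 10 most abundant transcripts, the highest of the monocyte samples.

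ENSRNOT00000089857 was above 0 in 1 B cell sample (1.51 CPM), 1 CD4 T sample (1.14 CPM) and 1 spleen (0.473 CPM), with the other samples of these groups at 0. ENSRNOT00000057022 reached 161 CPM in NK replicate 5 and 18.4 CPM in WBC replicate 5, each far above the rest of its group. ENSRNOT00000074175 reached 4470 CPM in CD8 T replicate 5.

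ENSRNOT00000015473 differed between the 2 myeloid types, with neutrophils above monocytes by 3.85 on the log2 scale (edgeR, adjusted p = 2.0e-09). In the livers of the same series, which entered no comparison above, its mean was 71.2 CPM after acetaminophen and 2.37 CPM in the controls, and all 5 treated livers lay above all 5 control livers. After methylene dianiline, the other toxicant, its mean was 3.43 CPM, and the 5 livers (1.58 to 4.44 CPM) lay inside the control range of 0.713 to 5.44 CPM.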

How the results depend on the processing

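The log2 differences of the named transcripts kept their sign and their side of the threshold in every alternative that tested them. These transcripts were chosen for passing the 8 tests with all samples apart, so this says little about the other transcripts. ENSRNOT00000089857 was not tested with a mean of at least 10 CPM. Which of the 2 counts of the 8 tests was larger turned in 4 of 23 alternatives: DESeq2 gave 2694 above and 2625 below, leaving out replicate 5 gave 2468 and 2435, leaving out monocytes gave 3898 and 3774, and a log2 difference above 1 gave 1116 and 975. For complete separation it turned in 2 of 18, with 1414 and 1621 after quantile normalization and 1116 and 1704 with library totals. With library totals in place of TMM, complete separation above fell to 1116 transcripts, and the 8 tests gave 1862 above and 3119 below, with 74% of the main transcripts above kept. DESeq2 kept 99.6% of them. With a mean of at least 10 CPM, which tests fewer transcripts, the contrast gave 3255 higher and 3626 lower, the order of means 2530 and 2998, and 1161 transcripts below were lower in WBC. With an absolute log2 difference above 1 also asked for, the contrast gave 2190 and 2296, the 8 tests 1116 and 975, and WBC against spleen 680 and 565. Without monocytes, which leaves 4 tests, 3898 transcripts were above, and 2807 were separated above.

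Leaving out 1 replicate number, or neutrophil replicate 5, gave 4779 to 5183 higher and 5891 to 6152 lower in the contrast. The 8 tests gave 2326 to 2616 above and 2435 to 2757 below. Separation gave 1760 to 1992 above and 1275 to 1543 below. Leaving out 1 WBC or spleen sample gave 1796 to 1953 and 1697 to 1824. The replicate numbers were not treated as paired, since no pair of cell types had deviations correlated above 0.1 in all 6 numbers. Across the lineages 0 of 48 same-numbered pairs were above 0.1, and within a lineage 24 of 42 were. These included 5 of 6 for CD4 T and CD8 T cells, 5 of 6 for NK and CD8 T cells and 2 of 6 for neutrophils and monocytes. The main fit took all samples as independent. Deviations shared between splenic types would make its p-values across the lineages too small, which was not tested. With the number as a replicate block the contrast gave 5022 and 6238, the 8 tests 2558 and 2889, and WBC against spleen 1798 and 1673. In the sorted samples the block gives 1 shift per number to both lineages, so it cannot take up a shift of the splenic samples alone. CD4 against CD8 T cells gave 170 calls with the block and neutrophils against monocytes 6383, and the largest change among the 15 pairs was 1.21 times (B against CD8 T cells, 2509 calls). Low depth in neutrophil replicate 5 limits what its values at 0 can show.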
